A study of Mus musculus with 4 samples.

Results

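The genes described here are 39 mouse genes of DNA replication and mitosis, out of 22328 genes listed in the deposited tables. They were taken by symbol, and each symbol was found in both tables. By role, 4 are G1/S regulators, 14 act in DNA replication and 21 act in mitosis. The first pair of classes is called the S-phase members here (18 genes), and the rest the mitotic members (21 genes). The samples were 2 cultures of HT22 cells, an immortalised mouse hippocampal neuronal line, and 2 hippocampus samples of mouse offspring. HT22 SUP was grown for 48 h with 70 µM choline chloride and HT22 CON with 5 µM, both in the same high-glucose medium with serum and antibiotics. F1m-GCS offspring came from dams on a diet with 5 g/kg choline chloride from embryonic day 9 to birth, and F1m-CON offspring from dams on 1.1 g/kg. Once born, all offspring ate a basal diet, and behaviour was tested at 2 months of age. The labels state neither the strain nor whether 1 animal or a pool gave a hippocampus sample. Each group held 1 library, so no value below has a replicate check and no test of the conditions was made. Brackets after a log2 ratio hold its 95% counting interval, which covers counting error only.

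In a dividing cell the Mcm proteins form the ring-shaped helicase that opens the DNA. Cdc6 and Cdt1 load it on origins in G1, and Cdc45 and Mcm10 join it when it fires. Cyclins D and E with the transcription factor E2F1 drive entry into S phase, and the cyclin B partner Cdk1 drives entry into mitosis. In the adult hippocampus most cells are neurons that no longer divide, and dividing cells are mainly progenitors of the dentate gyrus and of oligodendrocytes. E2F factors are known to act on promoters of S-phase genes, and the cell cycle homology region, abbreviated CHR, is known from promoters of mitotic genes.

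The promoters of the S-phase and mitotic members held different motif letters, and they are shown here since both classes are followed below. RefSeq windows in GRCm38.p6, from 250 bases before to 50 bases after the gene start, were at hand for 32 of the 39 members, in 33 windows. Aurkb, Tpx2, Ccna2, Kif20a, Mcm4, Ccne2 and Ccnd1 had none in the table used. The E2F letters searched were TTTCCCGC, TTTCGCGC, TTTGCCGC and TTTGGCGC, and the others were TTTGAA for the CHR, CCAAT for the CCAAT box and TATAAA for the TATA box, all on both strands. An E2F word stood in 6 of 16 S-phase windows and in 1 of 17 mitotic windows, that of Cdk1, against 2.27% of all 32851 windows. TTTGAA stood in 2 S-phase windows, those of Mcm2 and Cdc45, and in 13 of 17 mitotic windows, against 17.9% of all. The CCAAT letters were in 11 S-phase and 15 mitotic windows, or 68.8% and 88.2%, against 37.4% of all. TATAAA was in 1 member window, that of Cdc45, against 13.6% of all. Member windows also differed from all windows in base composition, with a median of 24 CpG against 7. A match is a description of the letters and shows no binding.

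**Figure D1:**
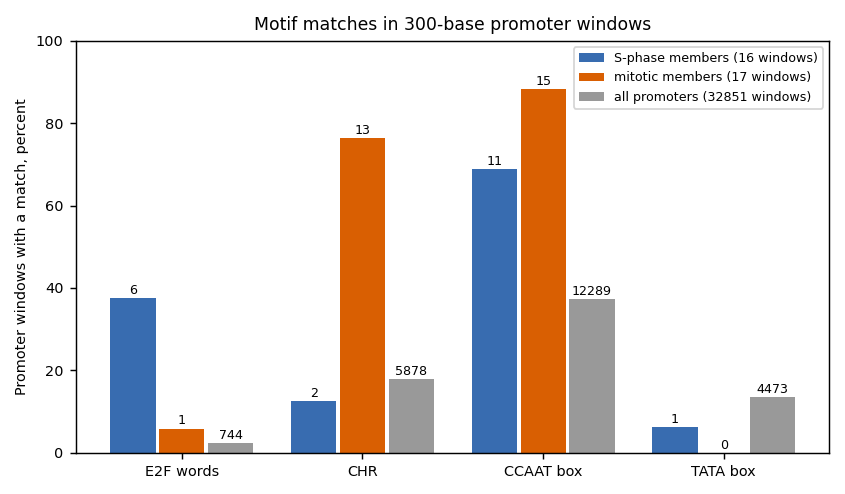
Percent of 300-base promoter windows that hold each motif at least once, for S-phase members, mitotic members and all promoters, with the number of windows above each bar. E2F words stood in 37.5% of S-phase windows and TTTGAA in 76.5% of mitotic windows.

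The windows of 3 S-phase members, each with an E2F word, and of 4 mitotic members, each with TTTGAA, are printed in the direction of the gene. Capitals mark the matches, on either strand. In Mcm5 and Mcm6 an E2F word on one strand overlaps another on the opposite strand, so that they form a single run of capitals. The windows lie at chr8:75109259-75109558 on the plus strand for Mcm5, chr1:128359656-128359955 on the minus strand for Mcm6, chr8:122567765-122568064 on the plus strand for Cdt1, chr10:69352863-69353162 on the minus strand for Cdk1, chr9:70421505-70421804 on the minus strand for Ccnb2, chr7:135716330-135716629 on the minus strand for Mki67 and chr11:99024140-99024439 on the minus strand for Top2a.
Mcm5: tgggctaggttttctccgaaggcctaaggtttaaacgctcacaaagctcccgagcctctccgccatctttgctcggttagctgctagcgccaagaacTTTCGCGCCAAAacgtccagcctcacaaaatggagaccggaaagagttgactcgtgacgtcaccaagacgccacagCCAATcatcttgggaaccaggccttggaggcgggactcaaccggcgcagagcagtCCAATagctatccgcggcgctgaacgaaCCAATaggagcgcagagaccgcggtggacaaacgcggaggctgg
Mcm6: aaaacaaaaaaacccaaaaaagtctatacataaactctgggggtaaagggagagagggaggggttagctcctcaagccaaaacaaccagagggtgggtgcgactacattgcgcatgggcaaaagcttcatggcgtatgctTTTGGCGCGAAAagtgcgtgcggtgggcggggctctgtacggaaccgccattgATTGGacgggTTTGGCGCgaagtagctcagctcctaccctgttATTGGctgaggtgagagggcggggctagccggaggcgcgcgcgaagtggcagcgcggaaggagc
Cdt1: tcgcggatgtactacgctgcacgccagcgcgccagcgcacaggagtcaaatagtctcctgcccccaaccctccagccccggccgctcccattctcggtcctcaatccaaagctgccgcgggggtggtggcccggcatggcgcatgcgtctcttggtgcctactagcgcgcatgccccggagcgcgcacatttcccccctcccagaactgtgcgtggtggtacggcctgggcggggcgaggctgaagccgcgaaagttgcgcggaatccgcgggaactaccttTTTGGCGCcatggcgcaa
Cdk1: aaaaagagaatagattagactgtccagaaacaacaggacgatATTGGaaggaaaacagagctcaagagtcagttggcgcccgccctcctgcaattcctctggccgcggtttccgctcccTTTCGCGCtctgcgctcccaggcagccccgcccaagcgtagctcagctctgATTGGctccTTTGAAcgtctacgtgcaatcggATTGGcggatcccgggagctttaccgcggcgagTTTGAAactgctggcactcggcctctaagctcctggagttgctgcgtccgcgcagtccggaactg
Ccnb2: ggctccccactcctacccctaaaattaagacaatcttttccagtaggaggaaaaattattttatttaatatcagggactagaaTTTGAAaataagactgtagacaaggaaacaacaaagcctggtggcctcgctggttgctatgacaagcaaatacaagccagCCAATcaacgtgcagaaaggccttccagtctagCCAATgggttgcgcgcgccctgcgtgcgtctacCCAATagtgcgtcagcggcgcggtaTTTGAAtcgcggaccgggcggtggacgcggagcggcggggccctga
Mki67: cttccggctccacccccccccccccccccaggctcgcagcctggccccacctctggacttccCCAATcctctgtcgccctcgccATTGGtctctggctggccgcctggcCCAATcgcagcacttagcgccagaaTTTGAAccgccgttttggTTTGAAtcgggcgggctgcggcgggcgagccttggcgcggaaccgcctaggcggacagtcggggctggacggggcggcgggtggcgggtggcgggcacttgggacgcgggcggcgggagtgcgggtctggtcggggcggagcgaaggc
Top2a: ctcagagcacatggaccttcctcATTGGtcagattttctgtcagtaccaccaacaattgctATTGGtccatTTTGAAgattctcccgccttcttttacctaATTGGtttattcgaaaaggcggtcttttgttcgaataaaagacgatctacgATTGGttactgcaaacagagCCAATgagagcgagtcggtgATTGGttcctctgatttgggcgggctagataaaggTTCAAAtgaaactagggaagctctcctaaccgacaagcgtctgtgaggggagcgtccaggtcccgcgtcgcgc
In Cdt1 the E2F word lay 33 bases after the start, and in Mcm5 the first word lay 153 bases before it. Cdk1 held both kinds of letters, with an E2F word 131 bases before the start and TTTGAA 71 and 15 bases before it. Top2a had the most CCAAT matches of these windows, with 6.

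All 39 members were higher in both HT22 libraries than in both hippocampus libraries, by at least 2-fold between the nearest libraries. That rule took 24.4% of 14012 genes in that direction, out of those that reached 50 reads in any library. Levels across lines are given in CPM, reads per 1e6 reads in genes, with TMM scaling over the 4 libraries. Summed over the 39 members the level was 9464 CPM in HT22 SUP and 8979 CPM in HT22 CON, against 253 CPM in F1m-GCS and 254 CPM in F1m-CON. The median log2 ratio of HT22 over hippocampus was 6.12 for the members and -0.12 for all measured genes. A cell line and a tissue differ in far more than division, and in tissue fewer dividing cells and less RNA per cell cannot be told apart.

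**Figure D2:**
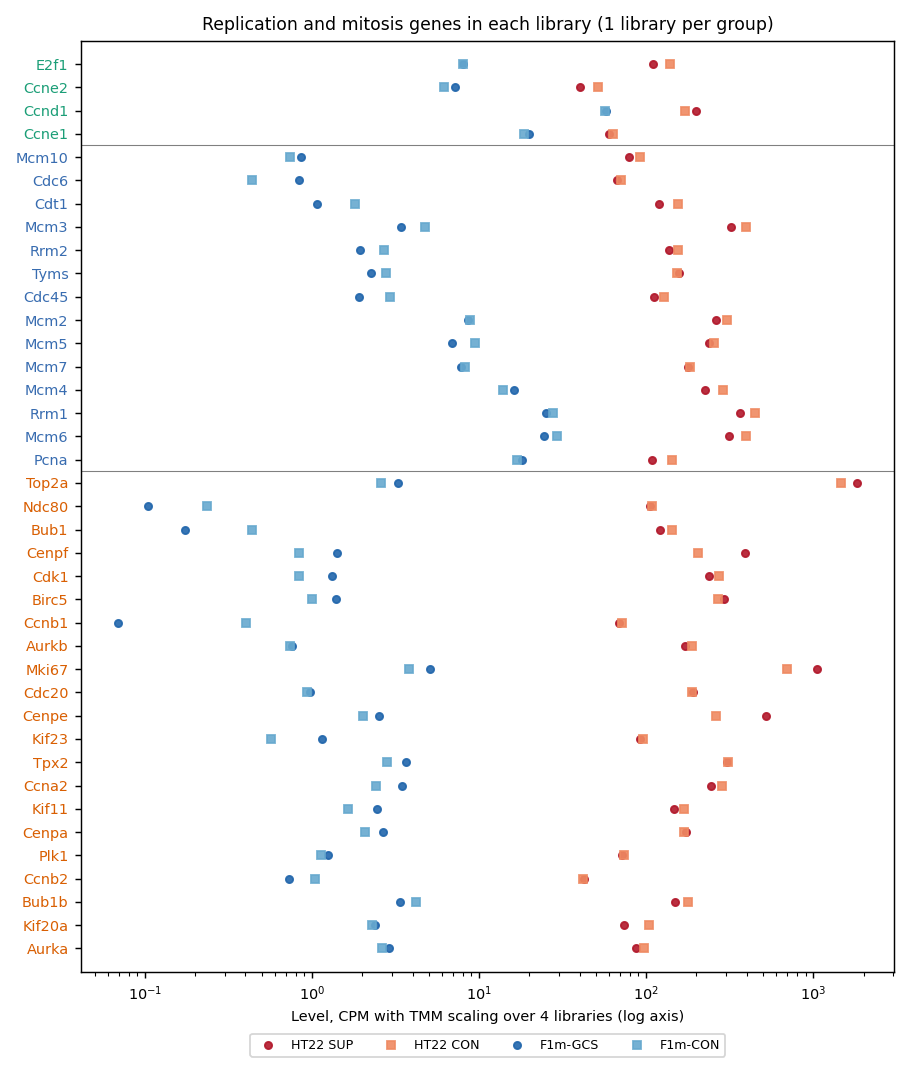
Level of each member in CPM on a log axis in the 4 libraries, with genes ordered within each role by the ratio of HT22 over hippocampus (G1/S regulators in green, replication in blue, mitosis in orange). The gap between HT22 and hippocampus is narrowest for Ccne1 and Ccnd1 and widest among the mitotic members.

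The mitotic members stood apart from hippocampus by more than the S-phase members. Between the nearest libraries, 21 of 21 mitotic members and 10 of 18 S-phase members were at least 20-fold higher in HT22, against 4.4% of measured genes. At least 100-fold higher were 11 mitotic members and 0 S-phase members, against 1.71% of measured genes. The median log2 ratios were 7.38 for mitotic and 4.69 for S-phase members. The highest S-phase value, 6.58 for Cdc6 and Mcm10, lay below the mitotic median.

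Ccnd1, the cyclin that reads growth signals in G1, had 2745 reads in HT22 SUP and 3299 in HT22 CON, against 1655 in F1m-GCS and 1687 in F1m-CON. The nearest libraries differed 2.99-fold, the smallest gap of the 39. Ccne1, a cyclin that starts S phase, had 830 reads in HT22 SUP and 1220 in HT22 CON, against 578 in F1m-GCS and 552 in F1m-CON, a 3.01-fold gap. Both cyclins were thus well counted in tissue, as was Pcna, the sliding clamp of the DNA polymerases. Pcna had 1486 reads in HT22 SUP and 2730 in HT22 CON, against 521 in F1m-GCS and 503 in F1m-CON, 5.99-fold apart. Ccne2, the other cyclin E gene, stood between these at 5.59-fold. Mcm6 at 10.7-fold, Rrm1 at 13.1-fold, E2f1 at 13.6-fold and Mcm4 at 13.9-fold came next. Rrm1 is the large subunit of ribonucleotide reductase, whose small S-phase subunit Rrm2 was 50.7-fold apart.

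At the other end stood Ndc80 and Top2a. Ndc80, a kinetochore protein that grips microtubules, had 1457 reads in HT22 SUP and 2083 in HT22 CON, against 3 in F1m-GCS and 7 in F1m-CON. The nearest libraries differed 452-fold, on those 7 reads. Top2a, the topoisomerase that untangles chromosomes, had 25288 reads in HT22 SUP and 28252 in HT22 CON, against 95 in F1m-GCS and 77 in F1m-CON, 446-fold apart. Top2a was also the member with the highest CPM in HT22, at 1839 in SUP and 1469 in CON. The checkpoint kinase gene Bub1 was 277-fold apart, the chromosomal passenger kinase gene Aurkb 223-fold and Cdc20, an activator of the anaphase-promoting complex, 195-fold. Aurkb had 22 reads in each hippocampus library and Cdc20 had 28 in each. The authors' RPKM values, per kilobase of coding length, had medians over the members' line and tissue means of 64.0 in HT22 and 1.08 in hippocampus. By the same measure the mitotic medians were 39.6 and 0.498 and the S-phase medians 73.1 and 2.82.

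The 6 helicase subunits Mcm2 to Mcm7, which work as 1 ring, had like levels per length in the line and unlike levels in tissue. In HT22 SUP their RPKM lay between 53.9 for Mcm7 and 87.3 for Mcm3, and in HT22 CON between 65.2 and 124 for the same genes, a 1.62-fold and a 1.90-fold spread. In F1m-GCS they lay between 1.05 for Mcm3 and 7.50 for Mcm6, and in F1m-CON between 1.48 and 9.01, a 7.15-fold and a 6.07-fold spread. Mcm3 was the highest of the subunits in both HT22 libraries and the lowest in both hippocampus libraries. In tissue it had 98 reads in F1m-GCS and 142 in F1m-CON, while Mcm6 had 708 and 872 in the same order. Over all 39 members the rank correlation of the mean RPKM in HT22 with that in hippocampus was 0.52, across genes that share libraries and length scaling.

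The wider set of cell cycle genes was placed alike. Of 44 other replication genes 43 were at least 2-fold higher in HT22 by the same rule, and Pold3, a DNA polymerase delta subunit, was not. Of 60 other mitotic genes 58 were higher, and the checkpoint gene Bub3 and the citron kinase gene Cit were not. Cit, which is also used in neurons, had 113 CPM in HT22 SUP and 67.1 in HT22 CON, against 66.9 in F1m-GCS and 60.2 in F1m-CON. The median log2 ratios of these lists were 4.19 and 6.13.

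Markers of the cells in each sample were set beside these levels. All 10 pan-neuronal markers were at least 2-fold lower in HT22 between the nearest libraries, against 34.3% of measured genes. Their summed level was 206 CPM in HT22 SUP and 92.6 CPM in HT22 CON, against 11490 CPM in F1m-GCS and 11504 CPM in F1m-CON. The neuronal label of HT22 is thus not borne out by marker levels near those of tissue. Of 8 neuroblast and intermediate progenitor markers, 2 were at 0 reads in HT22 SUP and 3 in HT22 CON, and the sum of the 8 was 2.76 and 1.77 CPM. In tissue that sum was 370 CPM in F1m-GCS and 361 CPM in F1m-CON. Reads in genes numbered 13192007 in HT22 SUP, 18305096 in HT22 CON, 30265820 in F1m-GCS and 31175015 in F1m-CON. They were 63.1% of the uniquely mapped reads in HT22 SUP and 72.9% in HT22 CON, and 79.0% to 79.4% in the hippocampus libraries.

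Choline in the medium went with small differences in these genes, lower for replication and mixed for mitosis. Among the 39 members, all with at least 50 reads, 3 were higher in HT22 SUP by 1.5-fold with an interval above 0, and 0 were lower by that rule. It took 5.13% of 10854 measured genes as higher and 2.89% as lower. The median log2 ratio of the members was -0.14, against -0.05 for all measured genes, and 29 of 39 lay below 0 and 10 above it, against 58.1% and 41.9% of measured genes. Intervals lay wholly below 0 for 21 members and wholly above 0 for 6, against 32.7% and 22.4% of measured genes.

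Replication members lay below 0 nearly throughout. Of 14, 13 were below 0, and 11 had an interval below 0, with a median of -0.22. The summed reads of the 14 gave a log2 ratio of -0.24 (-0.26 to -0.22). Pcna had 1486 reads in HT22 SUP and 2730 in HT22 CON, and a log2 ratio of -0.39 (-0.49 to -0.30), at percentile 8.79 of measured genes. Pcna has the pseudogenes Pcna-ps1 and Pcna-ps2 in GENCODE M21, and the counting could split reads among such copies, so its value is uncertain. Cdt1 had 1644 reads in HT22 SUP and 2977 in HT22 CON and -0.37 (-0.46 to -0.28).

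All 6 helicase subunits lay below 0 in HT22 SUP. Mcm4 had 3106 reads in HT22 SUP and 5557 in HT22 CON, and -0.35 (-0.42 to -0.29). Mcm6 had 4316 and 7568 reads in the same order, and -0.33 (-0.38 to -0.27). Mcm7, with 2433 reads in HT22 SUP and 3536 in HT22 CON, was nearest to 0 at -0.06 (-0.13 to 0.02). The ratios of Mcm4 and Mcm7 thus did not overlap in their counting intervals. Rrm1 had -0.31 (-0.36 to -0.26), from 4987 reads in HT22 SUP and 8643 in HT22 CON. Tyms, the thymidylate synthase that makes a DNA precursor, was the 1 replication member above 0, at 0.04 (-0.04 to 0.12), and it has a pseudogene, Tyms-ps.

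Among the G1/S regulators Ccnd1 went the other way. It had 2745 reads in HT22 SUP and 3299 in HT22 CON, and a log2 ratio of 0.22 (0.15 to 0.29). E2f1, with 1508 reads in HT22 SUP and 2664 in HT22 CON, had -0.34 (-0.43 to -0.24), and Ccne2, with 551 and 996 reads, had -0.37 (-0.52 to -0.22). Ccne1 had -0.07 (-0.20 to 0.06). Exons of Ccnd1 overlap 23.4% of their bases with a gene on the opposite strand in GENCODE M21, and those of Ccne2 17.4%. The library kit does not mark strand, so reads of such partners cannot be told apart.

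Among the mitotic members the longest stood highest in HT22 SUP. Cenpe, a kinetochore motor (ENSMUSG00000045328, chromosome 3, 135212563 to 135273540 in mm10), had 7167 reads in HT22 SUP and 5058 in HT22 CON. Its log2 ratio was 0.99 (0.93 to 1.04). Cenpf, a kinetochore-associated protein (ENSMUSG00000026605, chromosome 1, 189640599 to 189688086), had 5380 reads in HT22 SUP and 3934 in HT22 CON, and 0.94 (0.88 to 1.00). Mki67, the coat protein of mitotic chromosomes used as a marker of dividing cells (ENSMUSG00000031004, chromosome 7, 135689788 to 135716379), had 14417 reads in HT22 SUP and 13317 in HT22 CON, and 0.60 (0.56 to 0.63). These 3 were the members that passed the 1.5-fold rule, Mki67 narrowly at 1.51-fold. Top2a followed among the mitotic members at 0.32 (0.30 to 0.35), then Birc5, the survivin gene of the chromosomal passenger complex, at 0.14 (0.08 to 0.20), from 4046 reads in HT22 SUP and 5153 in HT22 CON.

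Cenpe, Cenpf, Mki67 and Top2a were the 4 highest of all members and also the 4 longest by coding length, at 7416 bases for Cenpe, 8994 for Cenpf, 9534 for Mki67 and 4587 for Top2a. Long genes in general had higher ratios in HT22 SUP. Of 172 measured genes at least as long as Cenpe, 61.6% passed the same rule as higher, with a median log2 ratio of 0.65 and quartiles of 0.43 and 0.90. Among those, Cenpe stood at percentile 82.0, Cenpf at 79.7 and Mki67 at 39.5. The genes were split into 10 groups by coding length, and the median of its group was taken off each ratio. So corrected, Cenpe had 0.69 (0.64 to 0.75), Cenpf 0.64 (0.58 to 0.70), Mki67 0.30 (0.27 to 0.34) and Top2a 0.03 (0.01 to 0.06). All 4 fell in the longest group, of 3540 to 105642 bases, whose median was 0.29. That is less than the 0.65 of genes at least as long as Cenpe. The correction is thus too small for Cenpe, Cenpf and Mki67, and Mki67 lay below the median of genes that long. What the relation with length comes from was not tested.

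**Figure D3:**
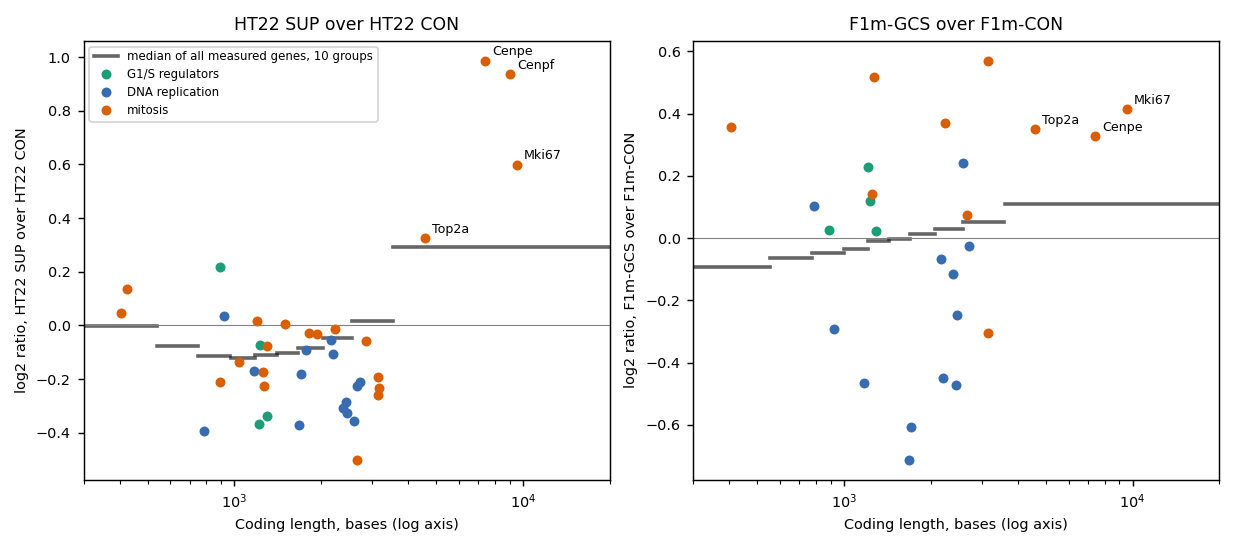
Log2 ratio of each measured member against coding length on a log axis, in HT22 (left) and hippocampus (right), with bars for the median of all measured genes in 10 groups by length; the longest group runs past the axis. In HT22 the 4 longest members sit on or above the bar of their group, and most replication members sit below theirs.

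The other mitotic members lay near or below 0 in HT22 SUP. Without the 4 longest, 13 of 17 were below 0, against 58.1% of all measured genes, with a median of -0.08 against -0.05. Their summed reads gave -0.10 (-0.12 to -0.08). After the length correction 9 of the 17 were below 0, with a median of -0.01. Lowest of all members was Kif20a, a kinesin of cytokinesis, with 1013 reads in HT22 SUP and 2005 in HT22 CON, and -0.50 (-0.61 to -0.39). Its exons share 29.3% of their bases with Cdc23 on the opposite strand, and exons of Ccna2 share 12.5% with Exosc9. Bub1b, a spindle checkpoint protein, had -0.26 (-0.34 to -0.18) and Bub1 -0.23 (-0.32 to -0.15). Ccna2, a cyclin of S phase and G2, had 3359 reads in HT22 SUP and 5492 in HT22 CON and -0.22 (-0.29 to -0.16), and Cdk1 had -0.21 (-0.27 to -0.15). Cdc20 at 0.00 (-0.07 to 0.08), Tpx2, a spindle assembly factor, at -0.01 (-0.07 to 0.04), Plk1, a mitotic kinase, at -0.03 (-0.15 to 0.09) and Ndc80 at -0.03 (-0.13 to 0.07) had intervals that included 0. In these genes the data give no direction beyond counting error.

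**Figure D4:**
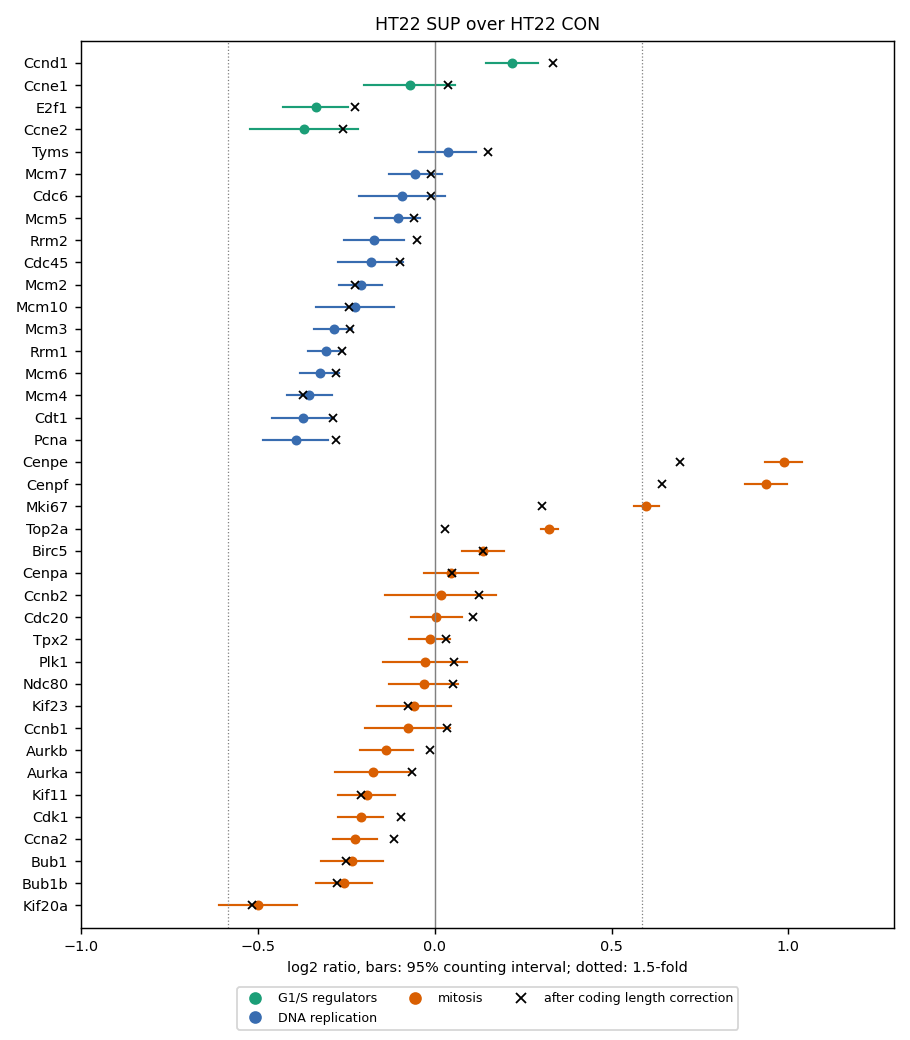
Log2 ratio of HT22 SUP over HT22 CON for each member (points) with 95% counting intervals (bars), and the value after the coding length correction (crosses). Cenpe, Cenpf and Mki67 lie beyond the dotted 1.5-fold line, and 13 of 14 replication members lie left of 0.

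Set against each other, S-phase members had a median log2 ratio of -0.22 and mitotic members -0.03, a difference of -0.19. After the correction for coding length the medians were -0.23 and 0.03. With mitotic members of the same range of coding length as the S-phase members (11 genes), the difference was -0.14. A difference between medians over genes is a description of these 2 libraries, since genes of 1 library are not replicates.

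Cell cycle genes outside the 39 showed little difference between the roles in HT22. Other replication genes had a median log2 ratio of -0.11 and other mitotic genes -0.07, and after the correction for coding length the medians were -0.049 and -0.052. Of 44 other replication genes, 30 were below 0 in HT22 SUP, against 58.1% of all measured genes, and 22 had an interval below 0, against 32.7%. None of them (0) passed the 1.5-fold rule. The lowest was Slbp, which binds histone mRNA, at -0.43. The highest were the checkpoint adaptor gene Clspn at 0.46 and the polymerase gene Pola1 at 0.39, both of long coding sequence. After the length correction their values were 0.17 and 0.09, while Slbp had -0.31. Of 60 other mitotic genes, 37 were below 0, a share near that of all measured genes. Their intervals lay below 0 for 27 and above 0 for 15, against 32.7% and 22.4% of all measured genes. By the rule 2 were higher, against 5.13% of all measured genes, the kinesin gene Kif20b at 0.77 and Cit at 0.75. Kif14 had 0.49 and Casc5, a kinetochore scaffold, 0.40. Taking off the length median left 0.48, 0.45, 0.20 and 0.10 for those 4 genes.

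Pan-neuronal markers moved beside these values in HT22, with a log2 ratio of summed reads of 1.15 (1.07 to 1.24) in SUP over CON. Of 9 measured, 8 were higher and 1 lower by the 1.5-fold rule, against 5.13% and 2.89% of all measured genes. Blood markers (157 reads in HT22 SUP, 52 in HT22 CON) had 2.08, and endothelial markers (57 and 21 reads) 1.92. Sums of choroid plexus, astrocyte and radial glia, oligodendrocyte precursor and microglia markers lay below 0, between -0.50 and -0.06. Neuroblast and intermediate progenitor markers had 0.64 (-0.06 to 1.36). Whether these shifts have a part in the members' ratios was not tested.

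In the hippocampus the members were scarce, and the role classes lay on either side of 0. At least 50 reads in 1 of the 2 libraries were found for 26 of 39 members, namely 4 G1/S regulators, 12 replication and 10 mitotic members. Of these 0 were higher in F1m-GCS by 1.5-fold with an interval above 0, and 2 were lower, Cdt1 and Cdc45. Cdt1 reached 50 reads only in F1m-CON, where it was higher. The rule took 1.8% of 13392 measured genes as higher and 0.904% as lower. The median of the 26 was 0.05, against -0.00 for all measured genes.

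Replication members leaned below 0 in F1m-GCS. Of 12 measured, 10 were below 0, against 51.2% of all measured genes, and 5 had an interval below 0, against 18.8%, with a median of -0.27. Summed over all 14, with no minimum of reads, there were 3457 reads in F1m-GCS and 3885 in F1m-CON, and the log2 ratio was -0.11 (-0.18 to -0.05). Cdt1 (ENSMUSG00000006585, chromosome 8, 122568015 to 122573128) had 31 reads in F1m-GCS and 54 in F1m-CON, and -0.71 (-1.43 to -0.08). Cdc45 (ENSMUSG00000000028, chromosome 16, 18780447 to 18811987) had 55 and 88 reads in the same order, and -0.61 (-1.14 to -0.12). Both passed the rule on few reads, with intervals that reach close to 0, and Cdt1 was measured only through its reads in F1m-CON.

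The other measured replication members did not reach 1.5-fold. Mcm5 had 200 reads in F1m-GCS and 284 in F1m-CON, and -0.45 (-0.72 to -0.19). Mcm3 had 98 and 142 reads in that order, and -0.47 (-0.87 to -0.10). Mcm6, with 708 reads in F1m-GCS and 872 in F1m-CON, had -0.25 (-0.39 to -0.10). Mcm4 lay on the other side, with 470 reads in F1m-GCS and 413 in F1m-CON, and 0.24 (0.05 to 0.43). The subunits of the ring thus did not share 1 direction in tissue, and the intervals of Mcm4 and Mcm6 did not overlap. Pcna, at 521 reads in F1m-GCS and 503 in F1m-CON, had 0.10 (-0.07 to 0.28), and Rrm1, at 731 and 823 reads, had -0.12 (-0.26 to 0.03). Rrm2 had -0.46 and Tyms -0.29, both with intervals that included 0.

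All 4 G1/S regulators had ratios between 0.02 and 0.23, each with an interval that included 0. Ccnd1 had 1655 reads in F1m-GCS and 1687 in F1m-CON, and 0.03 (-0.07 to 0.13), the narrowest interval of the members in tissue.

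Mitotic members leaned above 0 in F1m-GCS. Of 10 measured, 9 were above 0, against 48.8% of all measured genes, and 3 had an interval above 0, against 20.9%, with a median of 0.35. Kif11, the motor that sets up the bipolar spindle, had 71 reads in F1m-GCS and 49 in F1m-CON, and 0.57 (0.04 to 1.14). Kif11 was thus measured only through its reads in F1m-GCS, where it was higher. Ccna2 had 100 reads in F1m-GCS and 72 in F1m-CON, and 0.52 (0.08 to 0.99). Mki67 had 147 reads in F1m-GCS and 114 in F1m-CON, and 0.41 (0.06 to 0.79). Bub1b was the 1 below 0, with 97 reads in F1m-GCS and 125 in F1m-CON, and -0.31 (-0.71 to 0.08). All 3 lower bounds lay near 0, and no measured mitotic member passed the 1.5-fold rule. Longer genes had higher ratios in F1m-GCS in general, with a rank correlation across 13392 genes of 0.35, and a median of 0.20 for those at least as long as Cenpe. After the length correction Ccna2 had 0.53 (0.09 to 1.00), while Kif11 at 0.52 (-0.01 to 1.09) and Mki67 at 0.31 (-0.05 to 0.68) had intervals that included 0. Exons of Ccna2 share 12.5% of their bases with Exosc9 on the opposite strand, and reads of that partner cannot be told apart.

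Under 50 reads, and so outside those counts, were 13 members, 11 of them mitotic. Their reads went both ways. Kif23, a kinesin of the midzone, had 33 reads in F1m-GCS and 17 in F1m-CON, Cenpf 41 and 25, Cdk1 38 and 25 and Birc5 40 and 30 in that order. Plk1 had 36 and 34. In the opposite direction Ccnb1, the main mitotic cyclin, had 2 reads in F1m-GCS and 12 in F1m-CON, Bub1 5 and 13, Ndc80 3 and 7 and Ccnb2 21 and 31. Ccnb1-ps and Ccnb2-ps are pseudogenes of the cyclin genes, so reads could be split there as well. Of the replication members Cdc6 had 24 reads in F1m-GCS and 13 in F1m-CON, and Mcm10 25 and 22. Summed over all 21 mitotic members, with no minimum, there were 1186 reads in F1m-GCS and 1033 in F1m-CON, and the log2 ratio was 0.25 (0.13 to 0.38). Without the 4 longest the sum was 830 against 757 reads, at 0.19 (0.04 to 0.33).

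**Figure D5:**
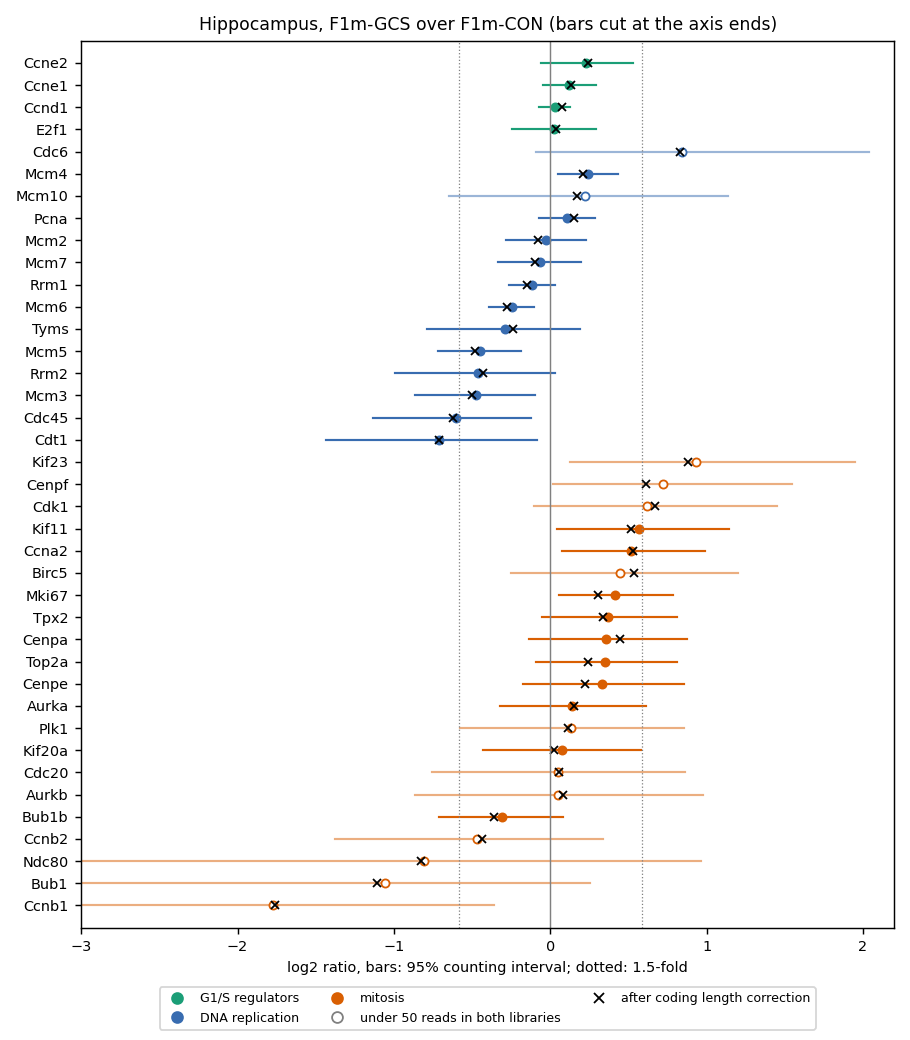
Log2 ratio of F1m-GCS over F1m-CON for each member with 95% counting intervals, open points for members under 50 reads in both libraries, and crosses after the coding length correction. Replication members lie mostly left of 0 and mitotic members mostly right of it, with intervals much wider than in HT22.

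The S-phase members with at least 50 reads had a median log2 ratio of -0.09 and the mitotic ones 0.35, a difference of -0.45. With the 12 measured replication members alone in place of the S-phase members the difference was -0.62. Corrected for coding length the S-phase and mitotic medians were -0.12 and 0.27, and corrected for GC content too they were -0.16 and 0.24. Ratios were lower for genes richer in GC, with rank correlations of -0.26 over all measured genes and -0.52 over the 26 members. With 1 library a group, this difference has no error between animals.

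Outside the 39, the same lean was not seen in tissue for replication genes, nor for mitotic genes by their side of 0. Of 44 others 35 had at least 50 reads, with a median of 0.07, 21 above 0, 3 higher and 1 lower by the rule. Over all measured genes 48.8% were above 0, 1.8% higher and 0.904% lower. Pole, a DNA polymerase epsilon subunit, had 61 reads in F1m-GCS and 32 in F1m-CON, and 0.94 (0.34 to 1.65). It reached 50 reads only in F1m-GCS, where it was higher. Clspn had 0.67 (0.10 to 1.32), and was likewise measured only through F1m-GCS, with 61 reads there and 39 in F1m-CON. Gmnn, the inhibitor of Cdt1, had 0.63 (0.15 to 1.16). Of 60 other mitotic genes 26 were measured, 14 above 0 and 12 below, with a median of 0.05, and 0 passed the rule. Corrected for length and GC their median was -0.03. Intervals lay above 0 for 8 and below 0 for 1, against 20.9% and 18.8% of all measured genes. The condensin genes Smc2 at 0.55 (0.34 to 0.77), Ncapg2 at 0.53 (0.23 to 0.84) and Smc4 at 0.51 (0.25 to 0.78) were highest among the 26, followed by Cenpm at 0.49 (-0.02 to 1.03).

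Markers of cells that could divide in tissue, or that other tissue brings in, were read in the same libraries. Oligodendrocyte precursor markers summed to 406 CPM in F1m-GCS and 426 CPM in F1m-CON, and microglia markers to 329 and 354 CPM in that order. Of 8 neuroblast and intermediate progenitor markers 4 lay above 0 and 4 below in F1m-GCS, with a median log2 ratio of -0.06. Among them Dcx had 1077 reads in F1m-GCS and 774 in F1m-CON, and Eomes 78 and 122. Choroid plexus markers had 7 of 7 members below 0 in F1m-GCS, against 51.2% of all measured genes, with a median log2 ratio of -0.52. All 7 had an interval below 0, against 18.8%, and 2 were lower by the 1.5-fold rule, against 0.904%. Their sums were 1678 CPM in F1m-GCS and 1960 CPM in F1m-CON. The part of these cells in the members' ratios was not tested.

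The comparisons of SUP with CON in HT22 and of F1m-GCS with F1m-CON in hippocampus share no library. Replication members were mostly below 0 in both, with 13 of 14 in HT22 SUP and 10 of 12 in F1m-GCS, but not the same genes led. Mcm4 had -0.35 in HT22 SUP and 0.24 in F1m-GCS, and Pcna -0.39 and 0.10. Mcm5 had -0.11 in HT22 SUP and -0.45 in F1m-GCS. Among mitotic members Kif11 had -0.19 in HT22 SUP and 0.57 in F1m-GCS, and Ccna2 -0.22 and 0.52, while Mki67 was above 0 in both, at 0.60 and 0.41.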

How the data were processed

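Poly(A)-selected RNA of 4 libraries was sequenced in paired-end mode, per the labels' protocols. Reads were trimmed with Trim Galore, aligned with TopHat2 to mm10 (at most 2 mismatches, minimum mapping quality 4), and counted with HTSeq, per the series' design text. CASAVA 1.8 was also used, per the submitters' processing notes, which give it no role. The count columns are the authors' raw reads per gene, per the file headers, and the authors' RPKM values follow the gene's coding length, which was checked on the files. Coding lengths are nearly all multiples of 3. The authors' deposited log2 fold changes, p-values and false discovery rates from edgeR were not used.

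Counts were scaled with TMM (edgeR 4.0.16, R 4.3.3), over the 2 libraries of a comparison, or all 4 for HT22 over hippocampus. Log2 ratios used a prior count of 2. Intervals are exact conditional (Clopper-Pearson) intervals at 95%. GC content was taken from GENCODE M21, from each gene's longest protein-coding transcript. The correction for length takes off the median of measured genes in the same of 10 groups by coding length, and that for GC then uses 5 groups. The functions were tested on simulated data. Python 3.11.15 and scipy 1.17.1 were used. Alternatives were a prior count of 0.25 or 10, a minimum of 10 or 200 reads, scaling by total counts or by DESeq2 1.42.0, stricter fold rules, other splits of the classes and CON libraries alone. Any of the 39 genes could be named, those past the 1.5-fold rule and the highest and lowest of each role with reads. Of each other list up to 4 genes farthest from 0 were named, except 1 replication gene that is not reported here. Pold3, Bub3 and the single markers were chosen after their values were seen, as were the printed promoters. The members and lists were chosen with earlier results of these data known.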

Additional observations from a re-analysis of the deposited data

How the results depend on the processing

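Across the settings tried, all 39 members stayed higher in HT22 than in hippocampus, except at 4-fold between the nearest libraries, where 37 did. In HT22 SUP the members' median log2 ratio was -0.050 after the correction for length and GC, and S-phase minus mitotic was then -0.28, against -0.14 and -0.19 without it. No member was higher at 2-fold there (0 against 3), and 2 were with the whole interval beyond 1.5-fold or after either correction. In hippocampus 1 member was higher in F1m-GCS with a prior count of 0.25 and 2 with at least 10 reads. The 2 lower ones became 3 with at least 10 reads, 1 with a prior count of 10 or after the correction for length and GC, and 0 with at least 200 reads, the whole interval beyond 1.5-fold or 2-fold. Over all genes, 557 were higher and 314 lower in HT22 SUP, against 1146 and 393 with at least 10 reads, 267 and 131 with 200, 329 and 47 with the whole interval and 241 and 57 at 2-fold. In F1m-GCS 241 were higher and 121 lower, against 417 and 242, 105 and 12, 36 and 13 and 30 and 23 in the same order. The counts were 155 and 111 with length and GC corrected. With at least 200 reads no mitotic member was left, so S-phase minus mitotic had no value. Otherwise that difference lay between -0.62 and -0.35 in hippocampus and between -0.28 and -0.14 in HT22. The cause of these shifts was not tested beyond what a stricter rule or fewer genes set by construction. No paired analysis was possible because each group held 1 library, and none could be left out. In hippocampus 13 members had under 50 reads, and the calls added with at least 10 reads came from these: Kif23 and Cenpf higher and Ccnb1 lower in F1m-GCS.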

Other observations

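Inhibitors of the cell cycle were read beside the members. Of 13 such genes, a list of cyclin-dependent kinase inhibitors, pocket proteins and related brakes, 10 had at least 50 reads in HT22, and 8 of these lay below 0 in SUP, against 58.1% of all measured genes, with a median log2 ratio of -0.18. Intervals lay below 0 for 5 of the 10, against 32.7% of all measured genes. Cdkn1a, which encodes the p21 inhibitor, was the 1 lower by 1.5-fold, which 2.89% of all measured genes were, with 1773 reads in HT22 SUP and 4335 in HT22 CON, and -0.80 (-0.89 to -0.73). Cdkn1b, the p27 gene, had 1000 and 2024 reads in that order, and -0.53 (-0.64 to -0.42). Wee1, a kinase that holds Cdk1 back, had -0.46 (-0.72 to -0.21) and Cdkn2c -0.37 (-0.45 to -0.28). In hippocampus 11 of the 13 were measured, with a median of -0.05 and 0 past the rule. Cdkn1c had 328 reads in F1m-GCS and 454 in F1m-CON, and -0.41 (-0.62 to -0.21), and Cdkn1b 1899 and 2292 reads, and -0.22 (-0.31 to -0.13). The pocket protein gene Rbl1 lay on the other side of 0, with 76 reads in F1m-GCS and 58 in F1m-CON, and 0.43 (-0.07 to 0.96).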
